A study of Mus musculus with 6 samples.

Results

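The genes described here are 45 genes of the lysosome: 10 proteases, 11 glycosidases and sulfatases, 6 lipid hydrolases and activators, 4 proteins of the lysosomal membrane, 12 genes of the vacuolar proton pump, and the transcription factors *Tfeb* and *Tfe3*. They were chosen by gene symbol from a list written by function, without a threshold on any value. However, earlier results of these data were known when the list was chosen. All 45 were found among the 24786 gene symbols of the expression table. Of these, 44 passed the filter on low values, which asked for 1 RPKM or more in 3 or more libraries, as did 10738 genes of the table. *Atp6v0d2* did not pass and is described by its values. RPKM is the number of reads per kilobase of gene, scaled to all mapped reads, so that levels can be compared between genes.

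Polyadenylated RNA of Raw264.7 cells was sequenced in 3 sh-NC libraries and 3 sh-*Etv5* libraries. Raw264.7 is a mouse macrophage line from a tumor induced by Abelson murine leukemia virus, and all 6 samples carry the strain label C57BL/6 and the age label postnatal day 21. The sh-NC cells (genotype label control) carried a negative control shRNA and the sh-*Etv5* cells (genotype label *Etv5* knockdown) an shRNA against *Etv5*, each brought in with a lentivirus. ETV5 is a transcription factor of the ETS family. The labels give detection at 24 or 48 h after infection, whereas the text of the study calls the sequenced cells stably transfected. Which shRNA was used, and whether each library came from its own infection, is not given in the sources used here. Thus n counts libraries, and p-values measure the spread between these libraries, which may be technical.

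The targeted gene was lower in all sh-*Etv5* libraries. Its level was 9.18, 9.89 and 9.39 RPKM in sh-NC and 5.19, 4.91 and 5.28 RPKM in sh-*Etv5*. The mean fell from 9.49 ± 0.367 to 5.13 ± 0.196 RPKM (SD, n = 3 each), a change of -46.0% (log2 fold change -0.78, limma, adjusted p = 2.74e-07). Of its 50-base stretches, 24.5% also occur in the pseudogene *Gm4798*.

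RPKM values do not give the depth of a library, and therefore no counting interval was computed. Relative to the first sh-NC library, the values of weakly expressed genes gave 0.9943 to 0.9988 times as many reads in the other sh-NC libraries and 0.8968 to 1.063 times as many in the sh-*Etv5* libraries. Libraries of the same group correlated with r of 0.9957 to 0.9973 across the tested genes, and libraries of different groups with r of 0.9134 to 0.9150 (genes are not independent replicates). Macrophage markers were present, with 9 of 10 at an RPKM of at least 1, and their summed level was 4490 to 4616 RPKM in sh-NC and 3587 to 3704 RPKM in sh-*Etv5*. Of this list 4 markers were higher (*Adgre1*, *Itgam*, *Cd14* and *Spi1*), 4 were lower (*Lyz2*, *Csf1r*, *Cd68* and *Fcgr1*), and the sum was carried by *Lyz2*, at 2834 ± 40.3 and 2041 ± 54.2 RPKM. Of the 8 osteoclast markers 3 reached 1 RPKM, and the summed level of the list was 22.77 to 24.78 RPKM in sh-NC and 10.18 to 11.88 RPKM in sh-*Etv5*. Of the 5 neutrophil markers only *S100a8* did, with summed levels of 0.1235 to 0.4906 and 15.56 to 19.71 RPKM, and 3 of the list were at 0 in every library. The T cell, B cell, fibroblast and epithelial lists had no marker at 1 RPKM. The macrophage, osteoclast and neutrophil lists moved with the knockdown, and their part in the values of the lysosomal genes was not tested. In bulk RNA, fewer cells of a type and less RNA per cell cannot be told apart.

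Lysosomes are acidic organelles in which macrophages break down what they engulf together with worn-out parts of the cell. Soluble hydrolases are tagged with mannose 6-phosphate and sorted from the Golgi apparatus to the lysosome, whereas a coat of glycosylated membrane proteins lines the organelle. The vacuolar proton pump (V-ATPase) acidifies it: its cytosolic V1 sector hydrolyses ATP and its membrane-embedded V0 sector carries the protons. TFEB and TFE3 are related basic helix-loop-helix transcription factors known to activate many lysosomal genes through a palindromic E-box in their promoters, the CLEAR element.

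More of the lysosomal genes were higher than lower in sh-*Etv5* cells. Of the 44 tested genes, 28 (63.6%) were called higher and 14 (31.8%) lower at an adjusted p under 0.05, whereas 33.3% of all tested genes were called higher and 41.0% lower (74.3% in either direction). The groups of 3 libraries did not overlap for 42 of the 44 genes, against 76.4% of all tested genes. When a log2 fold change beyond 0.5 was also required, 18 of the lysosomal genes were higher and 5 lower, against 15.9% and 15.0% of all tested genes. Their median log2 fold change was 0.27, and that of all tested genes was -0.05. Changes of more than 0.1 in either direction were found in 93.2% of them (82.6% of all tested genes), of more than 0.5 in 52.3% (31.0%), and of more than 1 in 15.9% (9.23%). The lysosomal genes had a median percentile of 83.2 by sh-NC level, and log2(RPKM + 1) understates changes of low genes. The shares, including those of groups without overlap, were not matched for level. All these values describe the list and carry no test of their own, and the list was chosen with earlier results of these data known.

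The summed level of the 45 genes was 4472.77, 4389.14 and 4410.46 RPKM in sh-NC and 5354.82, 5230.05 and 5298.02 RPKM in sh-*Etv5*. This was 1.368 to 1.385% of the RPKM of all genes in sh-NC and 1.557 to 1.595% in sh-*Etv5*. The ranges did not overlap, and abundant cathepsins made up a large part of either sum.

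**Figure D1:**
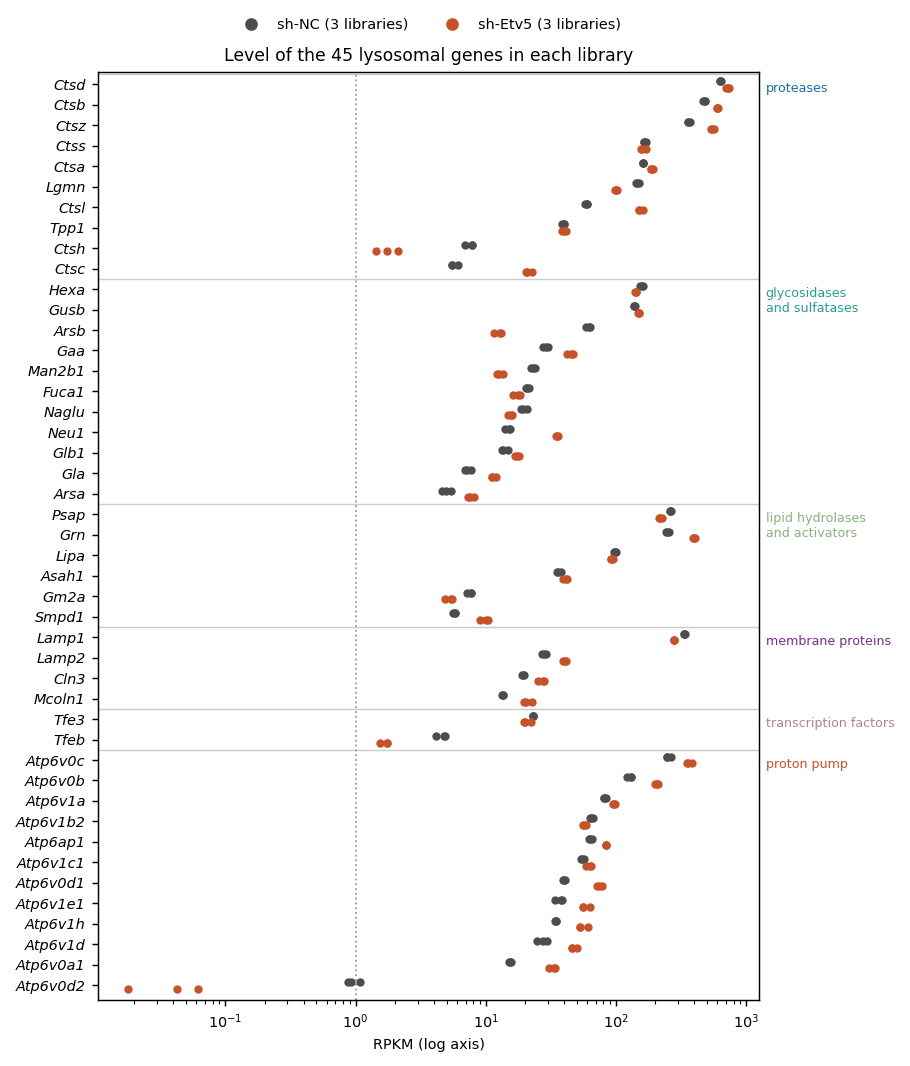
Level of each lysosomal gene in each library in RPKM on a log axis, with genes grouped by function and 3 points each for sh-NC and sh-*Etv5*. Libraries of a group lie close together, from *Ctsd* and *Ctsb* at the top down to *Atp6v0d2*, which was under 1.1 RPKM in all 6 libraries.

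**Figure D2:**
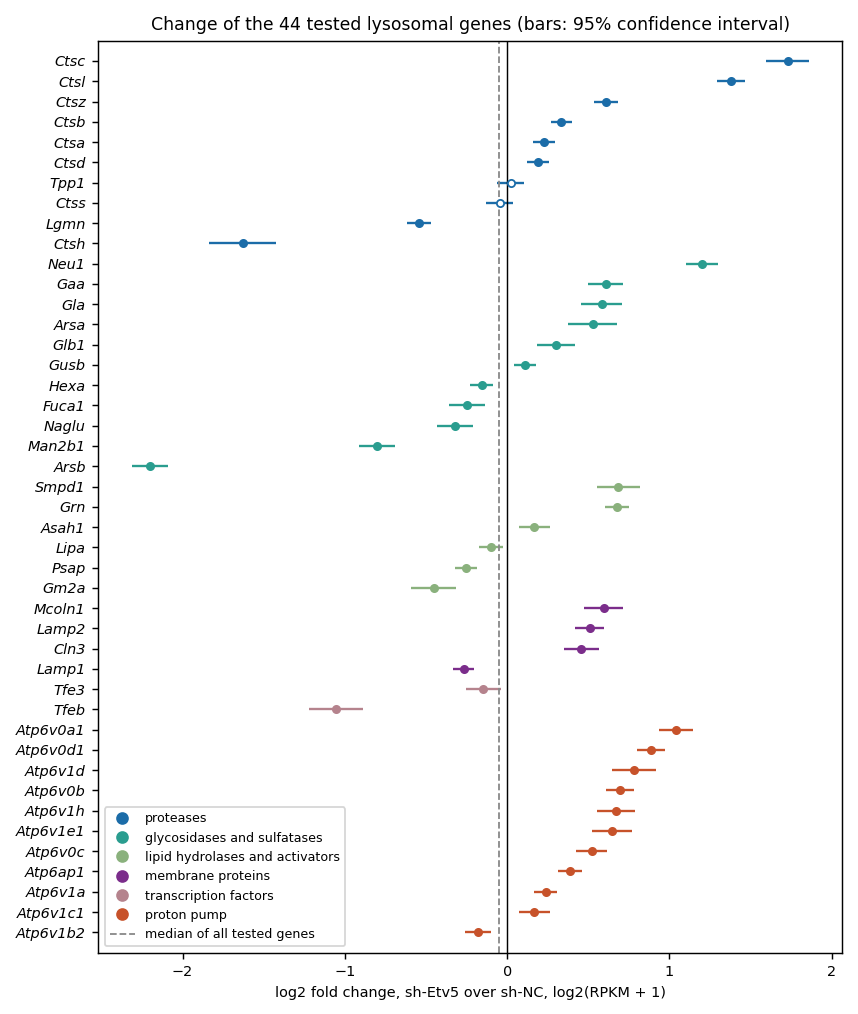
Log2 fold change of the 44 tested genes on log2(RPKM + 1), sh-*Etv5* over sh-NC, with 95% confidence intervals from limma, colored by group, and open circles for the genes that were not called (*Ctss* and *Tpp1*). The genes range from *Arsb* at -2.20 to *Ctsc* at 1.73, and 10 of the 11 tested proton pump genes lie above 0.

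The proteases gave both large rises and large falls. Of the 10 genes, 6 rose (60%), 2 fell (20%) and 2 did not pass the test, against 33.3% higher and 41.0% lower of all tested genes. Their median log2 fold change was 0.21. The summed level rose from 2037.72 to 2078.9 RPKM in sh-NC to between 2491 and 2568.75 RPKM in sh-*Etv5*.

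*Ctsc* (chromosome 7, 88278085 to 88310888, plus strand in GRCm38) encodes cathepsin C, a dipeptidyl peptidase that activates serine proteases of immune cells. It was at 5.55, 6.12 and 5.50 RPKM in sh-NC and at 20.4, 20.8 and 22.7 RPKM in sh-*Etv5*. Every sh-*Etv5* library was far above every sh-NC library, and the mean was 3.72 times as high (log2 fold change 1.73, SE 0.0588, limma adjusted p = 5.99e-10). *Ctsl* (chromosome 13, 64359337 to 64370890, minus strand) encodes the endopeptidase cathepsin L. Its levels were 57.5, 59.7 and 59.5 RPKM in sh-NC and 151, 151 and 162 RPKM in sh-*Etv5*, again without overlap. The mean was 2.63 times as high (log2 fold change 1.38, SE 0.0382, limma adjusted p = 1.26e-10). The exons of *Ctsl* overlap *Gm47123* on the opposite strand over 26.8% of their bases, and 6.46% of its 50-base stretches occur in other genes, most of them in *Gm49230*.

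*Ctsz*, a carboxypeptidase, was at 370, 356 and 355 RPKM in sh-NC and at 564, 537 and 551 RPKM in sh-*Etv5* (log2 fold change 0.61, limma adjusted p = 2.3e-08). It was thus the third most abundant of the 45 genes in either group. The remaining 3 rises were smaller and concerned abundant enzymes. *Ctsb*, a cysteine protease, went from 476 ± 7.88 to 599.9 ± 4.20 RPKM (26.0% higher, limma adjusted p = 1.53e-06). *Ctsa*, the protective protein that stabilises β-galactosidase and neuraminidase, went from 161 ± 0.393 to 189 ± 2.87 RPKM (17.1% higher, limma adjusted p = 3.84e-05). *Ctsd*, the main aspartic protease of the lysosome, went from 631 ± 7.27 to 720.4 ± 16.2 RPKM (14.2% higher, limma adjusted p = 0.000208). All 3 had groups without overlap, but *Ctsd* shares 34.4% of its exon bases with *Gm49369* on the same strand, and reads of these genes may not be told apart. Of the exon bases of *Ctsa* and *Ctsb*, 17.4% and 12.8% overlap genes on the opposite strand.

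*Ctsh* and *Lgmn* were the proteases that fell. *Ctsh* (chromosome 9, 90054152 to 90076089, plus strand), an aminopeptidase, was at 7.89, 6.88 and 7.82 RPKM in sh-NC and at 1.75, 1.44 and 2.12 RPKM in sh-*Etv5*. The groups lay far apart, with a change of the mean of -76.5% (log2 fold change -1.63, SE 0.0934, limma adjusted p = 3.72e-08). *Lgmn*, the asparaginyl endopeptidase that processes other cathepsins, was at 151, 143 and 145 RPKM in sh-NC and at 102, 98.7 and 99.4 RPKM in sh-*Etv5*. Its mean changed by -31.6% (log2 fold change -0.54, limma adjusted p = 7.95e-08). Consequently the order of levels turned for *Ctsc* and *Ctsh*: *Ctsh* was the higher of this pair in every sh-NC library and *Ctsc* in every sh-*Etv5* library.

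*Ctss* and *Tpp1* were not called, and their groups overlapped. *Ctss*, a cysteine protease of antigen processing, was at 165, 169 and 164 RPKM in sh-NC and at 159, 155 and 169 RPKM in sh-*Etv5* (log2 fold change -0.05, 95% confidence interval -0.13 to 0.04, limma adjusted p = 0.279). Without the third sh-*Etv5* library or with libraries scaled to the same sum, *Ctss* was called lower (log2 fold change -0.08 and -0.11, adjusted p = 0.0346 and 0.00976). *Tpp1*, a tripeptidyl peptidase, was at 39.2 ± 0.639 and 39.9 ± 1.12 RPKM (log2 fold change 0.02, 95% confidence interval -0.06 to 0.11, limma adjusted p = 0.598).

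Among the 11 glycosidases and sulfatases 6 were higher (54.5%) and 5 were lower (45.5%), against 33.3% and 41.0% of all tested genes. All 11 had groups without overlap, against 76.4% of all tested genes. The median log2 fold change was 0.11, but the genes spread from -2.20 to 1.20. Their summed level was 482.103 to 498.985 RPKM in sh-NC and 462.812 to 467.249 RPKM in sh-*Etv5*, so that for these enzymes the sum was lower after knockdown.

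*Arsb* had the largest change of all 44 tested genes. It encodes arylsulfatase B, which removes sulfate from dermatan and chondroitin sulfate, and lies on the plus strand of chromosome 13 from 93771630 to 93943016. It was at 62.7, 59.0 and 61.7 RPKM in sh-NC and at 12.9, 13.1 and 11.6 RPKM in sh-*Etv5*. No library came near those of the other group, and the mean changed by -79.5% (log2 fold change -2.20, SE 0.0502, limma adjusted p = 2.47e-11). Of its exon bases, 39.9% overlap *Gm26527* or *Gm47210* on the opposite strand, and the sources used here do not state whether strand was used when reads were counted. *Arsa*, which acts on sulfated glycolipids, moved the other way. It was at 5.44, 4.64 and 4.96 RPKM in sh-NC and at 8.17, 7.52 and 7.28 RPKM in sh-*Etv5* (log2 fold change 0.53, limma adjusted p = 3.25e-05), and 18.8% of its exon bases overlap a gene on the opposite strand.

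*Neu1*, the lysosomal neuraminidase that cleaves sialic acid, showed the largest rise of this group. The gene lies on the plus strand of chromosome 17 from 34931253 to 34935953. It was at 15.3, 14.0 and 15.0 RPKM in sh-NC and at 35.5, 35.6 and 34.7 RPKM in sh-*Etv5*, a mean 2.39 times as high (log2 fold change 1.20, SE 0.0447, limma adjusted p = 1.18e-09). *Gaa*, which degrades glycogen, was at 30.0, 29.2 and 27.6 RPKM in sh-NC and at 45.4, 46.4 and 41.9 RPKM in sh-*Etv5* (log2 fold change 0.61, limma adjusted p = 5.84e-07). *Gla*, the α-galactosidase, was at 7.24, 7.69 and 6.92 RPKM in sh-NC and at 11.1, 11.1 and 11.96 RPKM in sh-*Etv5* (log2 fold change 0.58, limma adjusted p = 3.02e-06). Smaller rises were found for the β-galactosidase *Glb1* (from 14.0 ± 0.870 to 17.4 ± 0.649 RPKM, limma adjusted p = 0.000384) and the β-glucuronidase *Gusb* (from 138 ± 1.08 to 149 ± 1.13 RPKM, limma adjusted p = 0.00577), the latter not called when libraries were scaled to the same sum (log2 fold change 0.049, adjusted p = 0.132).

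Besides *Arsb*, 4 enzymes of this group fell. *Man2b1*, the α-mannosidase of glycoprotein breakdown, was at 23.2, 22.1 and 23.7 RPKM in sh-NC and at 12.6, 13.4 and 12.1 RPKM in sh-*Etv5*, a change of -44.6% (log2 fold change -0.80, limma adjusted p = 7.7e-08). *Naglu*, which acts on heparan sulfate, went from 19.6 ± 0.954 to 15.5 ± 0.603 RPKM (log2 fold change -0.32, limma adjusted p = 0.000142), and the α-fucosidase *Fuca1* from 20.8 ± 0.646 to 17.4 ± 1.04 RPKM (log2 fold change -0.25, limma adjusted p = 0.00112). *Hexa*, the α-subunit of β-hexosaminidase, went from 158 ± 3.55 to 141 ± 1.42 RPKM (log2 fold change -0.16, limma adjusted p = 0.000947). It was the most abundant of the 11 in sh-NC, whereas *Gusb* was in sh-*Etv5*.

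Of the 6 lipid hydrolases and activators, 3 were higher (50%) and 3 were lower (50%), against 33.3% and 41.0% of all tested genes. All 6 had groups without overlap, against 76.4% of all tested genes. Their median log2 fold change was 0.03, but it was -0.026 with libraries scaled to the same sum and lay between 0.015 and 0.055 with 1 library left out (0.015 without the first sh-NC library, 0.016 without the second sh-*Etv5* library and 0.055 without the first). *Smpd1*, the acid sphingomyelinase, was at 5.79, 5.76 and 5.60 RPKM in sh-NC and at 10.4, 9.07 and 9.97 RPKM in sh-*Etv5* (log2 fold change 0.68, limma adjusted p = 1.33e-06). *Grn* encodes progranulin, the precursor of the lysosomal granulins, and is counted in this group although it is not itself a lipid hydrolase. *Grn* was at 255, 242 and 245 RPKM in sh-NC and at 403, 398 and 388 RPKM in sh-*Etv5* (log2 fold change 0.68, limma adjusted p = 1.02e-08). *Asah1*, the acid ceramidase, rose by less (log2 fold change 0.17, limma adjusted p = 0.00455).

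Both activator proteins of glycosphingolipid breakdown fell. *Psap*, the precursor of the saposins, went from 261 ± 1.46 to 219 ± 4.91 RPKM (log2 fold change -0.26, limma adjusted p = 1.76e-05). *Gm2a*, the GM2 activator that works with β-hexosaminidase, went from 7.53 ± 0.324 to 5.24 ± 0.343 RPKM (log2 fold change -0.45, limma adjusted p = 5.86e-05). *Lipa*, the acid lipase that hydrolyses cholesteryl esters, was at 98.7 ± 1.91 and 92.2 ± 2.19 RPKM (log2 fold change -0.10, limma adjusted p = 0.0222), and this call was lost without the second or the third sh-NC library or the first sh-*Etv5* library (adjusted p = 0.064, 0.0969 and 0.0697). Because *Grn* and *Psap* moved in opposite directions, *Grn* was the higher of them in every sh-*Etv5* library, whereas in sh-NC *Psap* was.

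The membrane proteins moved in opposite directions as well, with 3 higher (75%) and 1 lower (25%), against 33.3% and 41.0% of all tested genes. The summed level of the 4 genes was nevertheless lower, at 392.234 to 398.204 RPKM in sh-NC and 364.122 to 369.165 RPKM in sh-*Etv5*. *Lamp1*, the most abundant of the 4, was at 332, 336 and 337 RPKM in sh-NC and at 279, 277 and 277 RPKM in sh-*Etv5*, a change of -17.0% (log2 fold change -0.27, limma adjusted p = 6.7e-06). Its relative *Lamp2*, which is also needed for autophagy mediated by chaperones, was at 27.0, 28.2 and 28.8 RPKM in sh-NC and at 39.1, 40.5 and 41.1 RPKM in sh-*Etv5* (log2 fold change 0.51, limma adjusted p = 5.51e-07). *Mcoln1*, the calcium channel TRPML1, was at 13.4, 13.6 and 13.7 RPKM in sh-NC and at 22.8, 19.8 and 20.5 RPKM in sh-*Etv5* (log2 fold change 0.60, limma adjusted p = 1.83e-06). Each gene had groups without overlap, as had 76.4% of all tested genes. *Cln3*, which is mutated in a juvenile neuronal ceroid lipofuscinosis, went from 19.2 ± 0.415 to 26.8 ± 1.48 RPKM (log2 fold change 0.46, limma adjusted p = 5.69e-06), and 7.65% of its exon bases overlap *Apobr* on the opposite strand, which was at 21.2 to 22.5 RPKM in sh-NC and 26.5 to 27.7 RPKM in sh-*Etv5*.

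Neither transcription factor rose. *Tfeb* (chromosome 17, 47737030 to 47792419, plus strand) was at 4.83, 4.16 and 4.77 RPKM in sh-NC and at 1.76, 1.74 and 1.55 RPKM in sh-*Etv5*. The groups lay far apart, and the mean changed by -63.3% (log2 fold change -1.06, SE 0.0756, limma adjusted p = 2.34e-07). *Tfe3* was at 23.0, 23.1 and 23.0 RPKM in sh-NC and at 22.2, 20.2 and 19.8 RPKM in sh-*Etv5* (log2 fold change -0.15, limma adjusted p = 0.0175). This smaller difference was not called without the second or the third sh-*Etv5* library (adjusted p = 0.0566 and 0.0517). The files hold mRNA levels, and these factors are known to be controlled largely by phosphorylation and entry into the nucleus, which were not measured here.

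The proton pump was the group with the largest share of higher genes. Of its 11 tested genes 10 (90.9%) were higher, 7 of them by more than 0.5, and 1 (9.09%) was lower. Among all tested genes 33.3% were higher, with 15.9% higher by more than 0.5, and 41.0% were lower. All 11 pump genes had groups without overlap, against 76.4% of all tested genes. The median log2 fold change was 0.65. The summed level rose from between 790.705 and 812.58 RPKM in sh-NC to between 1118.92 and 1154.07 RPKM in sh-*Etv5*. The 4 tested V0 genes were all higher with a median of 0.79, and of the 6 V1 genes 5 were higher with a median of 0.44.

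In the V0 sector, *Atp6v0a1* (chromosome 11, 101009452 to 101063719, plus strand) encodes an isoform of the large a subunit that forms the proton path with the proteolipid ring. It was at 15.4, 15.2 and 15.6 RPKM in sh-NC and at 33.4, 34.1 and 30.7 RPKM in sh-*Etv5*, a mean 2.13 times as high (log2 fold change 1.04, SE 0.0471, limma adjusted p = 5.69e-09). *Atp6v0d1* (chromosome 8, 105524465 to 105566047, minus strand) encodes the widely expressed isoform of the d subunit, which joins the ring to the central stalk. It was at 40.3, 39.6 and 39.1 RPKM in sh-NC and at 73.9, 71.0 and 77.6 RPKM in sh-*Etv5* (log2 fold change 0.89, SE 0.0400, limma adjusted p = 5.52e-09). Both genes thus stood apart from their sh-NC libraries by many times the spread within a group. The ring proteolipids rose as well. *Atp6v0b* went from 127 ± 5.48 to 207 ± 5.46 RPKM (log2 fold change 0.70, limma adjusted p = 2.93e-08). *Atp6v0c* went from 254 ± 10.6 to 365 ± 19.2 RPKM (log2 fold change 0.52, limma adjusted p = 9.71e-07), but 10.8% of its 50-base stretches also occur in the pseudogenes *Atp6v0c-ps1* and *Atp6v0c-ps2*.

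The second d isoform went the other way. *Atp6v0d2* (chromosome 4, 19876841 to 19922605, minus strand), which is known from osteoclasts and macrophages, was at 0.920, 0.883 and 1.08 RPKM in sh-NC and at 0.0429, 0.0180 and 0.0621 RPKM in sh-*Etv5*. All sh-*Etv5* libraries were far below the sh-NC libraries, and the mean changed from 0.963 ± 0.107 to 0.0410 ± 0.0221 RPKM, by -95.7%. It did not enter the test because it reached 1 RPKM in a single library. In the fit without a filter its log2 fold change was -0.91 (limma adjusted p = 0.000222), which on the log2(RPKM + 1) scale understates the change of so low a gene. *Atp6v0d2* made up 2.23, 2.18 and 2.70% of the summed RPKM of both d isoforms in sh-NC and 0.0580, 0.0254 and 0.0799% in sh-*Etv5*, so that *Atp6v0d1* was the main d isoform in all 6 libraries. Of the osteoclast markers, *Dcstamp* and *Nfatc1* were also lower (log2 fold change -1.45 and -0.98), whereas the level of *Acp5* was higher.

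In the V1 sector, *Atp6v1d*, a subunit of the rotating central stalk, was at 27.5, 29.3 and 24.6 RPKM in sh-NC and at 45.7, 45.8 and 50.1 RPKM in sh-*Etv5* (log2 fold change 0.78, limma adjusted p = 5.1e-07). *Atp6v1h*, the subunit that links ATP hydrolysis to proton transport, went from 34.4 ± 0.423 to 55.5 ± 4.45 RPKM (log2 fold change 0.67, limma adjusted p = 4.54e-07). The peripheral stalk subunit *Atp6v1e1* went from 36.7 ± 2.11 to 58.1 ± 3.99 RPKM (log2 fold change 0.65, limma adjusted p = 1.06e-06). In the catalytic head the fold changes were smaller. *Atp6v1a*, which holds the ATP-hydrolysing sites, went from 81.8 ± 1.33 to 96.6 ± 1.14 RPKM (log2 fold change 0.24, limma adjusted p = 4.39e-05). *Atp6v1b2*, its partner in the head, was the only tested pump gene of the 11 that fell. It was at 64.5, 66.3 and 63.0 RPKM in sh-NC and at 55.6, 56.4 and 58.9 RPKM in sh-*Etv5* (log2 fold change -0.18, limma adjusted p = 0.00115). *Atp6v1c1*, which takes part in holding V1 and V0 together, rose by 0.17 (limma adjusted p = 0.00519), and the accessory protein *Atp6ap1* by 0.39 (limma adjusted p = 9.85e-07). *Atp6v1a* and *Atp6v1b2* therefore moved in opposite directions, as did *Atp6v0d1* and *Atp6v0d2*.

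**Figure D3:**
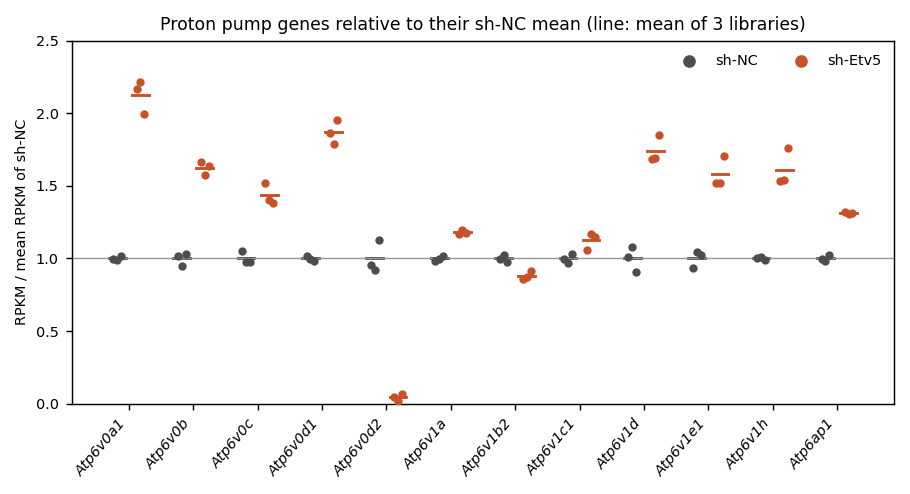
RPKM of each proton pump gene in each library divided by the mean of the 3 sh-NC libraries of that gene, with a line at the mean of each group. The sh-*Etv5* points lie above 1 for 10 genes, at 2.13 on average for *Atp6v0a1*, below 1 for *Atp6v1b2* at 0.88 and close to 0 for *Atp6v0d2* at 0.0426.

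The promoters of these genes were read because TFEB and TFE3 are known to bind the E-box CACGTG, in the CLEAR element most often with T before and A after it. Promoter windows from RefSeq (GRCm38.p6, 250 bases before to 50 after the start of transcription) were matched by symbol for 38 of the 45 genes. The window of 7 genes, *Ctsb*, *Ctsh*, *Asah1*, *Atp6v0d2*, *Atp6v1b2*, *Atp6v1c1* and *Atp6v1h*, was not analysed. CACGTG, which reads the same on both strands, was in the window of 15 of the 38 genes (39.5%), against 8.09% of all windows with a symbol and 12.4% of those of tested genes. The longer palindrome TCACGTGA, which contains the shorter, was in 7 windows (18.4%), against 1.12% and 2.38%. Because the element is known from promoters of lysosomal genes, a higher share in such a list was given in advance. It is thus no finding of these data. A match of letters is a description of the window and not evidence of binding.

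The stretches with the longer palindrome are given here for the 7 genes that hold it, all of which were higher in sh-*Etv5*, written in the direction of transcription with the palindrome in capitals.
*Atp6v0d1* (chr8:105566050-105566079, minus strand): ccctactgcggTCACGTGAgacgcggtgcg
*Atp6v1a* (chr16:44139373-44139402, minus strand): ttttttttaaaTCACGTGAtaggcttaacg
*Cln3* (chr7:126583340-126583369, minus strand): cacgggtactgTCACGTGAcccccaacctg
*Ctsa* (chr2:164833749-164833795, plus strand): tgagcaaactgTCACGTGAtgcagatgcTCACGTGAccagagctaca
*Ctsd* (chr7:142387908-142387937, minus strand): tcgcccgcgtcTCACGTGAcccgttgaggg
*Gla* (chrX:134601182-134601211, minus strand): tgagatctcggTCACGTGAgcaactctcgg
*Gla* (chrX:134601215-134601244, minus strand): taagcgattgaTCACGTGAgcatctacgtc
*Mcoln1* (chr8:3500462-3500491, plus strand): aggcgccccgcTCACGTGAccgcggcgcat

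*Ctsa* and *Gla* hold the palindrome in 2 places each. Counted from the RefSeq start of the window, its centre lies at the start in *Atp6v0d1*, close to it in *Ctsa*, and 42 to 224 bases before it in the other 5. The gene start in GENCODE can lie elsewhere, as for *Ctsa* at 164832873 on chromosome 2. For comparison, the genes with the shorter E-box that were lower in sh-*Etv5* were *Lamp1*, *Lgmn* and *Naglu*, shown in the same way with CACGTG in capitals. They were chosen by their direction. *Arsa*, *Atp6v0b*, *Ctsl*, *Gaa* and *Glb1* also hold the shorter E-box without the longer palindrome, were higher and are not shown. In *Lamp1* 4 copies stand in a stretch of 76 bases ahead of the start of transcription.
*Lamp1* (chr8:13159088-13159163, plus strand): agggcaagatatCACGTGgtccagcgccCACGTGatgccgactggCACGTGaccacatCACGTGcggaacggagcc
*Lgmn* (chr12:102439124-102439153, minus strand): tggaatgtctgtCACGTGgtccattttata
*Naglu* (chr11:101070009-101070038, plus strand): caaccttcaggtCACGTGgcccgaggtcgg

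Of the 15 genes with CACGTG, 12 were higher and 3 lower, with a median log2 fold change of 0.46. Of the 23 genes without it, 12 were higher, 9 lower and 2 not called, with a median of 0.11. All 7 genes with the longer palindrome were higher (median 0.46), and of the 31 without it 17 were higher, 12 lower and 2 not called (median 0.30). Of all tested genes, 36.9% of the 198 with the longer palindrome were called higher and 37.9% lower, against 33.1% and 41.3% of the 8119 without it. In the whole table, 33.0% of the 1032 tested genes with CACGTG were called higher and 42.4% lower, against 33.2% and 41.1% of the 7285 tested genes without it. The largest rises of the 38 genes were not those with the longer palindrome, since neither *Ctsc*, *Ctsl*, *Neu1* nor *Atp6v0a1* holds it. GGAAGT, a form of the letters bound by ETS factors, was searched on both strands and was in 16 of the 38 windows (42.1%), against 34.6% of those of tested genes. Of these 16 genes 10 were higher, 5 lower and 1 not called. Of the 22 without it 14 were higher, 7 lower and 1 not called. Of all tested genes, 32.3% of the 2876 with GGAAGT were called higher and 40.9% lower, against 33.6% and 41.4% of the 5441 without it.

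**Figure D4:**
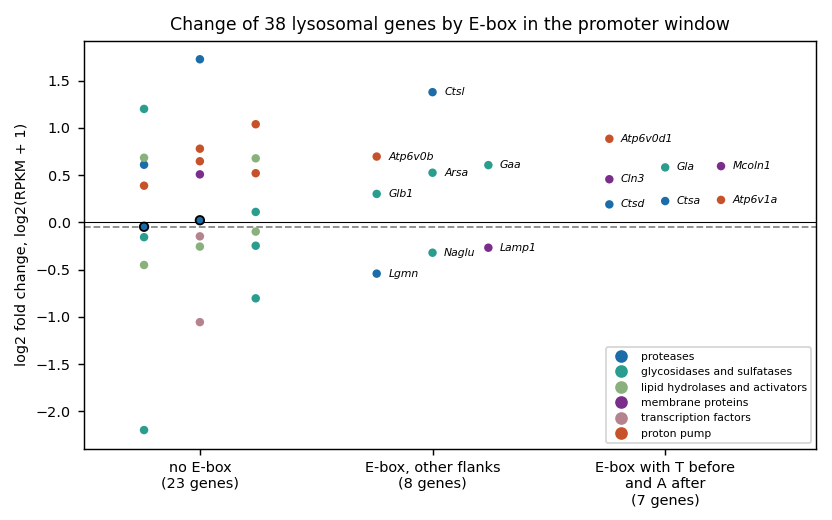
Log2 fold change on log2(RPKM + 1) of the 38 lysosomal genes with a promoter window, split by E-box content, with points colored by group, a dashed line at the median of all tested genes, and a black edge for genes not called. The 7 genes with the longer palindrome all lie above 0, and genes without CACGTG (labelled no E-box) cover the whole range from -2.20 to 1.73. Other forms of the E-box were not searched.

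Further genes of the lysosome were taken from lists by function. The counts of each list stand against 33.3% of all tested genes called higher and 41.0% called lower. Of 26 tested genes listed as other lysosomal hydrolases 14 were higher, 7 lower and 5 not called, with a median log2 fold change of 0.21. The list also holds *Glmp*, the gene of a membrane protein. The phospholipase D family member *Pld3* went from 21.3 ± 0.619 to 54.9 ± 2.51 RPKM (log2 fold change 1.32, limma adjusted p = 4.8e-10). The serine carboxypeptidase *Scpep1* went from 46.5 ± 0.343 to 100.2 ± 2.69 RPKM (log2 fold change 1.09, limma adjusted p = 3.29e-10). *Acp5*, the tartrate-resistant acid phosphatase, was at 0.464 ± 0.0730 RPKM in sh-NC and 2.32 ± 0.258 RPKM in sh-*Etv5*. It passed the filter only through the sh-*Etv5* libraries, so that its call (log2 fold change 1.18) had to follow and is given as a description. The 14 higher genes and the median of this list include *Acp5*.

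Of 19 tested genes listed as other membrane proteins 14 were higher, 4 lower and 1 not called, with a median of 0.44. The list also holds *Npc2*, whose protein is soluble. *Slc11a1*, the metal ion transporter of phagosomes, went from 4.03 ± 0.294 to 50.6 ± 0.812 RPKM (log2 fold change 3.36, limma adjusted p = 9.65e-13), a larger change than that of any of the 44 genes. *Laptm5*, a membrane protein of blood cells, went from 464 ± 14.5 to 229 ± 12.2 RPKM (log2 fold change -1.02, limma adjusted p = 3e-09). *Tpcn1*, a cation channel, went from 26.3 ± 0.170 to 12.9 ± 0.734 RPKM (log2 fold change -0.97, limma adjusted p = 1.14e-08). The channels *Mcoln1* and *Tpcn1*, which both release calcium from lysosomes, thus differed in direction.

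Of the other proton pump subunits 11 were tested, of which 6 were higher, 2 lower and 3 not called, with a median of 0.19. *Tcirg1*, which encodes the a3 isoform of the a subunit, was higher (from 73.1 ± 2.72 to 129 ± 6.81 RPKM, log2 fold change 0.81, limma adjusted p = 2.81e-08). It was more abundant than *Atp6v0a1* in either group. *Atp6v1g2*, an isoform of the G subunit, was also higher (log2 fold change 0.72, limma adjusted p = 1.3e-05). *Rogdi*, a component of a complex that assembles the pump, was lower (from 9.55 ± 0.134 to 5.07 ± 0.592 RPKM, log2 fold change -0.80, limma adjusted p = 1.37e-06).

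Genes that bring hydrolases to the lysosome, inhibit them or relay nutrients from it were counted in the same way. Of the 7 sorting genes 4 were higher and 3 lower (median 0.38). *Igf2r*, the large mannose 6-phosphate receptor, went from 6.13 ± 0.287 to 17.2 ± 1.50 RPKM (log2 fold change 1.35, limma adjusted p = 9.41e-09). The mannose 6-phosphate tag is made by a phosphotransferase, whose catalytic part is encoded by *Gnptab* and whose γ-subunit by *Gnptg*, and is then uncovered by the enzyme of *Nagpa*. *Gnptab* fell from 26.7 ± 0.497 to 12.1 ± 0.392 RPKM (log2 fold change -1.08, limma adjusted p = 2.3e-09) and *Nagpa* from 61.2 ± 2.73 to 38.4 ± 0.546 RPKM (log2 fold change -0.66, limma adjusted p = 6.59e-08). *Gnptg*, which was named after its values were seen, rose from 7.10 ± 0.514 to 10.8 ± 0.454 RPKM (log2 fold change 0.54, limma adjusted p = 1e-05).

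Of the 4 listed cathepsin inhibitors outside the stefin A gene cluster, which was not counted here, 2 were higher and 2 lower. *Cst3*, the secreted cystatin C, went from 1261 ± 11.9 to 657 ± 49.5 RPKM (log2 fold change -0.94, limma adjusted p = 1.35e-08). *Cst7*, the lysosomal cystatin F that acts on cathepsin C, went from 22.4 ± 1.39 to 5.67 ± 0.838 RPKM (log2 fold change -1.82, limma adjusted p = 7.28e-09), in the direction opposite to *Ctsc*. *Cstb*, a cytosolic inhibitor, went from 146 ± 3.36 to 264.8 ± 19.4 RPKM (log2 fold change 0.85, limma adjusted p = 3.4e-08).

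Among 15 tested genes of the MiT transcription factor family and of nutrient signalling at the lysosome, 6 were higher, 5 lower and 4 not called, with a median of -0.05. *Mitf*, a relative of *Tfeb* and *Tfe3*, fell from 7.52 ± 0.0379 to 2.12 ± 0.109 RPKM (log2 fold change -1.45, limma adjusted p = 3.25e-09). *Rraga*, a GTPase that recruits mTORC1, rose (log2 fold change 0.69, limma adjusted p = 8.4e-08), as did the arginine sensor *Slc38a9* from a low level (log2 fold change 0.43, limma adjusted p = 0.00111).

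**Figure D5:**
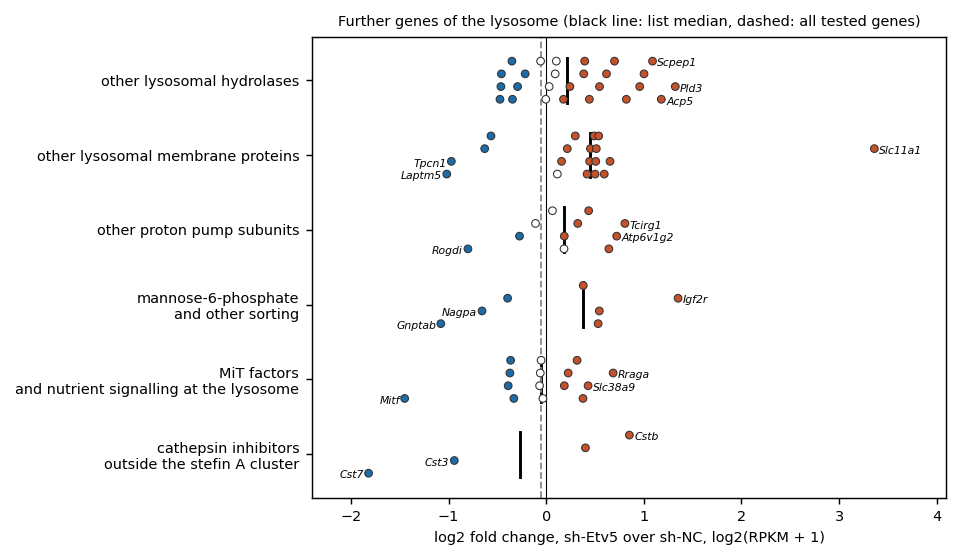
Log2 fold change on log2(RPKM + 1) of the tested genes in 6 further lists of lysosomal genes, with filled circles for called genes, open circles for genes not called, a black line at each list's median and a dashed line at the median of all tested genes. The medians run from -0.27 for the cathepsin inhibitors outside the stefin A gene cluster to 0.44 for the other membrane proteins. *Slc11a1* stands apart at 3.36.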

How the data were processed

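The authors deposited 1 RPKM value per gene symbol and library, that is a read number divided by gene length and by the mapped reads, with no log transformation. The submitters' processing notes name mm10. The aligner, the annotation and the use of strand are not given in the sources used here, and the read depth is unknown, because RPKM keeps only the relative depth of libraries. RPKM shifts for all genes when abundant genes change, and reads of overlapping genes can count for each. Besides the overlaps given with the results, exon bases were shared with a gene on the opposite strand for *Hexa* (12.8%), *Atp6v0b* (11.8%) and *Lamp1* (9.31%), and with *Tmppe* on the same strand for *Glb1* (5.49%).

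Groups and replicate numbers came from the sample labels, and all 6 columns were used. Genes that reached 1 RPKM in 3 or more libraries were compared on log2(RPKM + 1). The tool was limma 3.58.1 under R 4.3.3 (lmFit, then eBayes with trend, two-sided, no covariate). Benjamini-Hochberg adjustment ran over all genes tested, and adjusted p-values under 0.05 were called. Fold changes are on the log2(RPKM + 1) scale, which understates changes of low genes. With 3 libraries a group, exact permutation reaches no p below 0.1 and was not used. The fit was checked on simulated data. Positions and overlaps came from GENCODE M21 on GRCm38, and promoter windows from RefSeq on GRCm38.p6.

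The 45 genes and the further lists were chosen with earlier results of these data known, and therefore lists were described by counts and medians, without a test. Every one of the 45 genes could be named, and of each further list the 3 called genes with the largest change. Alternatives were no filter, a filter on a mean RPKM of 5, pseudocounts of 0.1 and 0.01, libraries scaled to the same sum, quantile normalization, centring on the median, eBayes without trend, a replicate block, and each library left out in turn.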

Additional observations from a re-analysis of the deposited data

How the results depend on the processing

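Of the 44 tested genes, 38 kept their direction and their side of the threshold under every alternative in which they were tested. *Ctsh* and *Tfeb*, counted among them, were not tested with a mean RPKM of at least 5. The number called higher ranged from 27 to 28 and the number called lower from 12 to 15. With libraries scaled to the same sum, the median log2 fold change was 0.15 for proteases, 0.049 for glycosidases and sulfatases, -0.026 for lipid hydrolases and activators (0.03 as reported, thus reversed) and 0.42 for membrane proteins, *Tpp1* changed sign to -0.037 (adjusted p = 0.418), *Gusb* was no longer called (adjusted p = 0.132), and *Ctss* was called lower (-0.11, adjusted p = 0.00976). Quantile normalization gave 0.53 for membrane proteins, and no filter gave 0.58 for the proton pump, which then includes *Atp6v0d2*. For the transcription factors the median was -0.77 and -0.80 with pseudocounts of 0.1 and 0.01 and -0.15 with a mean RPKM of at least 5, where *Tfeb* and *Ctsh* are left out and 3 genes instead of 5 were lower by more than 0.5. *Lipa* was not called without trend (adjusted p = 0.0698), *Tfe3* with no filter or quantile normalization (adjusted p = 0.0819 and 0.0767) and *Atp6v1c1* with no filter (adjusted p = 0.0568). *Ctss* was called without the third sh-*Etv5* library (-0.08, adjusted p = 0.0346). Where not stated, the cause was not tested. Libraries with the same replicate number showed no strong shared deviation (r = 0.0739, -0.071 and -0.0352 across genes, and up to 0.105 for different numbers). These values cannot tell whether the libraries were prepared in pairs. The fit with the replicate number as a block changed none of the 44 calls (28 higher, 14 lower) and gave 3539 higher and 4361 lower genes in all.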

Other observations

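By mean RPKM in sh-NC, the lysosomal genes lay high among all genes of the table that were tested, with a median percentile of 83.2, and the highest of the 44 tested genes was at 137.7 times the level of the lowest. *Ctsd*, *Ctsb* and *Ctsz* held ranks 1, 2 and 3 of the 45 in both groups, and *Tfeb* and *Atp6v0d2* ranks 44 and 45. Among the others, *Arsb* went from rank 18 in sh-NC to rank 38 in sh-*Etv5*, *Ctsc* from rank 41 to 31, *Ctsl* from 19 to 11 and *Neu1* from 35 to 28. The spread between libraries of a group was small for these genes, with a median SD on the log2(RPKM + 1) scale of 0.0376 in sh-NC and 0.0577 in sh-*Etv5*, against 0.0531 and 0.0685 over all tested genes.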
